A study of Mus musculus with 9 samples.

Results

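The interferon response genes described here are Ifih1, Ddx58, Irf7, Irf9, Stat2, Oasl2, Bst2, Samd9l, Psmb8 and Cxcl10, 10 of the 16770 genes tested on an exon array of mouse cortical neurons depleted of Tdp-43. They were found by symbol: a probe set counted for a gene where the platform annotation gave that gene's symbol, or an older synonym of it, and no other. Of their 156 probe sets, 110 had a mean over all arrays at or above the median of the deposited table, a log2 value of 6.07, and the mean log2 value of those is the gene value used below. The other 46 probe sets were dimmer and were left out. Each of the 10 genes kept at least 3 probe sets, so none was too dim to test. The probe sets nearest to the median on its upper side were 1 of Ifih1 and 1 of Irf7, both with a mean of 6.07, and the nearest below it were 1 of Ifih1 at 6.02 and 1 of Cxcl10 at 6.00.

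RNA came from primary cortical neurons of C57BL/6 embryos taken on embryonic day 15, in 3 groups of 3 arrays. The groups were infected with a lentivirus expressing the hairpin shTdp-43-2, the hairpin shTdp-43-1, both directed at mouse Tdp-43, or the control hairpin shCont. Infection was on day 5 of culture and lasted 4 h, and RNA was taken on day 11. All 3 groups thus carried a lentiviral hairpin and had been treated with AraC, a drug that kills dividing cells, and all were grown in a medium with serum, BDNF and CNTF, the last a cytokine that itself signals through Jak-Stat. No uninfected culture is analysed here, so a response common to infection with any of the viruses would not show in these comparisons. Each sample is labelled as cortical neurons, whereas the design text of the series names motor neurons and puts the harvest 11 days after transfection, not 6 days after infection. The samples' own labels were used here. Marker genes of neurons, 8 of 9 tested, averaged between 11.40 and 11.60 in log2 gene value on every array. Among them 2 fell with shTdp-43-2 (Nefl and Gad1), and 1 fell (Nefl) and 1 rose (Gad1) with shTdp-43-1, by limma. Of all genes, 14.1% were called lower with shTdp-43-2, and 5.96% lower and 5.16% higher with shTdp-43-1. Markers of other cell types are given after the results.

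Cells sense foreign or misplaced RNA through helicases of the cytosol, among them RIG-I and MDA5, which switch on transcription factors that induce type I interferon. Interferon then acts through its receptor, Jak kinases and a complex that holds Stat2 and Irf9, which binds interferon-stimulated response elements (ISRE) and raises antiviral effectors, antigen processing and chemokines. Hairpin vectors and lentiviruses are known to be able to set off this response, and neurons are known to respond to interferon.

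The targeted gene fell with both hairpins. Tardbp, which encodes Tdp-43, had log2 values of 8.22, 8.58 and 7.90 on the shTdp-43-2 arrays, 7.84, 8.23 and 8.55 on the shTdp-43-1 arrays, and 9.77, 9.94 and 10.06 on the shCont arrays. The level was 30.9% of shCont with shTdp-43-2 and 30.4% with shTdp-43-1 (limma adjusted p = 0.000109 and 0.000349). Between shTdp-43-2 and shTdp-43-1 the log2 difference was 0.03 (95% interval -0.38 to 0.43). Array medians of gene values lay between 8.75 and 8.94, and arrays of 1 group correlated at 0.985 to 0.994.

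The 10 genes did not all move one way. With shTdp-43-2, 4 of the 10 rose against shCont (Samd9l, Cxcl10, Psmb8 and Bst2) and 1 fell (Oasl2), by limma at an adjusted p under 0.05, where 7.76% of all genes were called higher and 14.1% lower. With shTdp-43-1, none rose and 1 fell, again Oasl2, where 5.16% of all genes were called higher and 5.96% lower; 3 of the 10 had an unadjusted p under 0.05. Set directly against each other, the hairpins differed in 1 of the 10, Samd9l, which was higher with shTdp-43-2, where 4.22% of all genes were called higher and 7.31% lower. Of the 3 kept probe sets of Samd9l, 2 passed the median only through their shTdp-43-2 arrays. Its part in the counts of calls and of groups without overlap is thus partly built into the choice of probe sets. The 10 genes had a median change of 0.18 under shTdp-43-2 and of 0.05 under shTdp-43-1, beside -0.008 and 0.006 over all genes tested. Every call in these comparisons fell on the effectors, the immunoproteasome subunit and the chemokine: none of the 5 sensors and transcription factors was called in any comparison, with lowest adjusted p-values of 0.283 for shTdp-43-2 and 0.189 for shTdp-43-1. Averaged over both hairpins, 3 rose (Cxcl10, Psmb8 and Bst2) and 1 fell (Oasl2), where 7.42% of all genes were called higher and 11.9% lower. All shTdp-43-2 values lay above all shCont values in 4 of the 10 genes and below them in none, beside 15.3% and 23.4% of all genes. For shTdp-43-1 the counts were 3 and 1, beside 16.9% and 18.1%, and for shTdp-43-2 against shTdp-43-1 they were 2 and 1, beside 11.1% and 16.8%. Both hairpins together lay above shCont on every array in 2, Bst2 and Psmb8, and below it in none, beside 7.72% and 10.9%. Both hairpins were set against the same 3 shCont arrays, so their calls on a gene are not independent of each other.

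**Figure D1:**
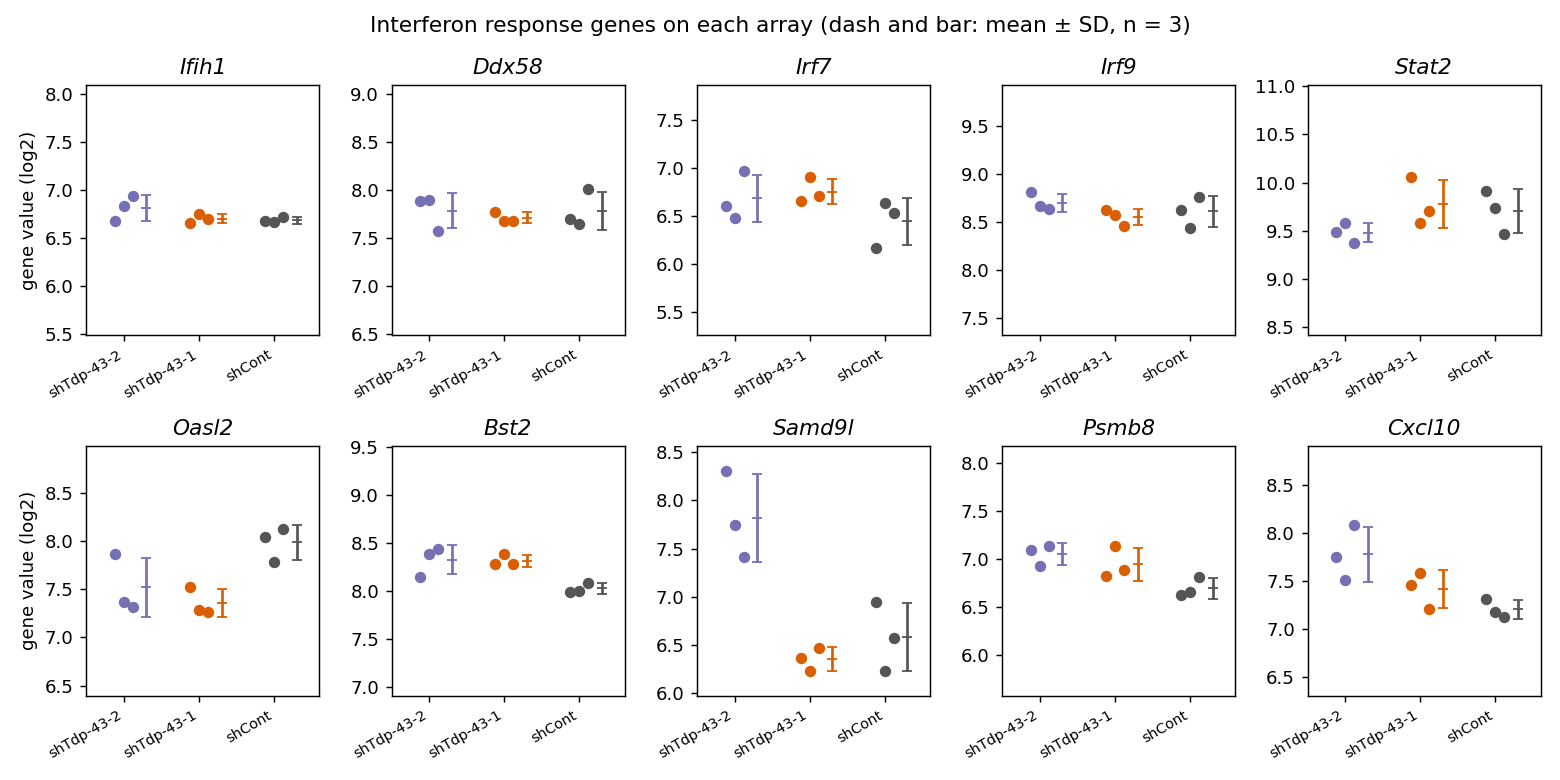
Log2 gene value (y axis, each panel spans the same range) of the 10 genes on each of the 9 arrays, 1 point per array, with the mean and SD of each group (n = 3) as a dash and bar. The Samd9l points of shTdp-43-2 lie at 7.41 to 8.31, above the 6.23 to 6.94 of all other arrays, and the Oasl2 points of shCont lie highest but for an overlap with 1 shTdp-43-2 array at 7.87.

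The stretch before the start of a gene is where interferon-activated factors bind, and these sequences are shown for the 5 genes that were called. Each is the 250 bases upstream of the gene's start in RefSeq (mouse assembly GRCm38.p6), written on the gene's own strand. Capitals mark the ISRE core searched for (GAAANNGAAA, either strand), or in Psmb8 the core of the gamma-activated site, the element bound by Stat dimers (GAS, TTCNNNGAA, which reads alike on both strands). Bst2 holds 2 overlapping ISRE cores, starting 130 and 124 bases upstream, and a GAS core at 136 bases that overlaps the first of them and is not capitalised apart from the shared letters.
Samd9l, chr6:3399572-3399821, minus strand: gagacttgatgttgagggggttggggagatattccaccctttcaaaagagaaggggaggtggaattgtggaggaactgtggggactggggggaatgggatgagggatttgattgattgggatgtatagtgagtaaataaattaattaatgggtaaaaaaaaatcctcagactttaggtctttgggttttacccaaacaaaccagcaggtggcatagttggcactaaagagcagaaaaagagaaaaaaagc
Cxcl10, chr5:92348890-92349139, minus strand: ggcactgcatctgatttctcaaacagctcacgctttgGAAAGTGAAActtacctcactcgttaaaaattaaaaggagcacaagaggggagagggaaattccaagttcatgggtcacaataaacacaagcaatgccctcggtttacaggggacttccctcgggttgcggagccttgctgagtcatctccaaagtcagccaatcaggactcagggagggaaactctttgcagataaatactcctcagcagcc
Psmb8, chr17:34197945-34198194, plus strand: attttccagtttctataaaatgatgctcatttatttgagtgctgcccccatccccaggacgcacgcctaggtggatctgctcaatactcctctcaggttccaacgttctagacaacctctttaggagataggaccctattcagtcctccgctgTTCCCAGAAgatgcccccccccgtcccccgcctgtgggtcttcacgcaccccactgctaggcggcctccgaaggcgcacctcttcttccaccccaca
Bst2, chr8:71537473-71537722, minus strand: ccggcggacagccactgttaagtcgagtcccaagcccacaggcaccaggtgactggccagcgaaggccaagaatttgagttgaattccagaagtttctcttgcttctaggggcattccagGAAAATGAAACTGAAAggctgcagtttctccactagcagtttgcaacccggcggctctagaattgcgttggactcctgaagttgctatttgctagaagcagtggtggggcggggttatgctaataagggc
Oasl2, chr5:114896684-114896933, plus strand: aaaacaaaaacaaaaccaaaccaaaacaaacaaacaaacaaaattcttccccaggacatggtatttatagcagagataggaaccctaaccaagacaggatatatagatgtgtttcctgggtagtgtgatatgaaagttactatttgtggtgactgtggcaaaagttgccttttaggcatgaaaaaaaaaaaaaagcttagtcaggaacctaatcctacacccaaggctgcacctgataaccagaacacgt
Cxcl10 has its ISRE core 213 bases upstream and Psmb8 its GAS core 97 bases upstream, while the letters of neither core occur in the windows of Samd9l and Oasl2. Over windows of 300 bases that also take in the first 50 bases of the gene, 5 of the 10 genes held an ISRE core, beside 3.44% of 32851 such windows in the table. The others with a core were Stat2, at 222 bases upstream, and Ddx58 and Ifih1, both inside the first 50 bases of the gene. A GAS core was found in 2 of the 10, Bst2 and Psmb8, beside 8.3% of all windows. Among the 4 genes that rose with shTdp-43-2, 2 carry an ISRE core here, and 3 of the 5 uncalled sensors and factors carry one too. A match of letters is a description and does not show that a factor binds.

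Ifih1 encodes MDA5, a helicase that senses long double-stranded RNA. Its values were 6.67, 6.83 and 6.93 with shTdp-43-2, 6.65, 6.75 and 6.70 with shTdp-43-1, and 6.67, 6.66 and 6.72 with shCont, so all 3 groups overlapped. The change was 0.13 ± 0.0837 (SE) with shTdp-43-2, with a 95% interval whose upper end was 0.31, and 0.02 ± 0.0837 with shTdp-43-1 (limma adjusted p = 0.324 and 0.919). Ddx58 encodes RIG-I, the helicase that senses RNA with a 5' triphosphate. It read 7.88, 7.89 and 7.57 with shTdp-43-2, 7.77, 7.67 and 7.67 with shTdp-43-1, and 7.70, 7.64 and 8.01 with shCont. The single shCont array at 8.01 was the highest of all, and the changes were 0.00 and -0.08 (limma adjusted p = 0.999 and 0.696). With 12 kept probe sets for Ifih1 and 20 for Ddx58, none was called on its own.

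The transcription factors likewise had no call. Irf7, the factor that amplifies type I interferon production, read 6.60, 6.48 and 6.96 with shTdp-43-2, 6.65, 6.90 and 6.70 with shTdp-43-1, and 6.16, 6.63 and 6.53 with shCont. All shTdp-43-1 arrays lay above all shCont arrays, by a narrow margin, and the shTdp-43-2 arrays overlapped them. The change was 0.31 ± 0.145 with shTdp-43-1 (limma adjusted p = 0.189) and 0.24 ± 0.145 with shTdp-43-2 (adjusted p = 0.283). By group mean, 6 of its 9 kept probe sets reached the median with shCont and all 9 with each hairpin. Part of the difference may thus be built into the choice of probe sets. One of the 9 kept probe sets of Irf7 read 3.06 on shCont replicate 1, against 5.77 to 7.34 on the other arrays. Without that probe set, left out after its values were seen, the change was 0.12 with shTdp-43-2 (adjusted p = 0.477) and 0.26 with shTdp-43-1 (adjusted p = 0.144).

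Irf9, the DNA-binding partner of Stat2, read 8.81, 8.67 and 8.63 with shTdp-43-2, 8.62, 8.57 and 8.46 with shTdp-43-1, and 8.62, 8.44 and 8.76 with shCont. The shCont arrays spanned nearly the whole range of both hairpins, and the changes against shCont were 0.09 and -0.06 (limma adjusted p = 0.549 and 0.729). The 3 shTdp-43-2 arrays lay just above the 3 shTdp-43-1 arrays, by 0.15 ± 0.0969 on average (adjusted p = 0.381). Stat2 read 9.49, 9.58 and 9.37 with shTdp-43-2, 10.06, 9.58 and 9.70 with shTdp-43-1, and 9.91, 9.73 and 9.46 with shCont. The shTdp-43-2 arrays lay at or below the lowest shTdp-43-1 array, and shCont overlapped both. Stat2 was the only gene of the 10 to keep all of its probe sets, 28 in number. For shTdp-43-2 minus shTdp-43-1, 27 of the 28 were below 0, and the gene value differed by -0.30 ± 0.138 with a 95% interval from -0.60 to 0.00, which missed the threshold (adjusted p = 0.199). Against shCont, Stat2 changed by -0.22 (shTdp-43-2) and 0.08 (shTdp-43-1), neither called (adjusted p = 0.299 and 0.726).

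**Figure D2:**
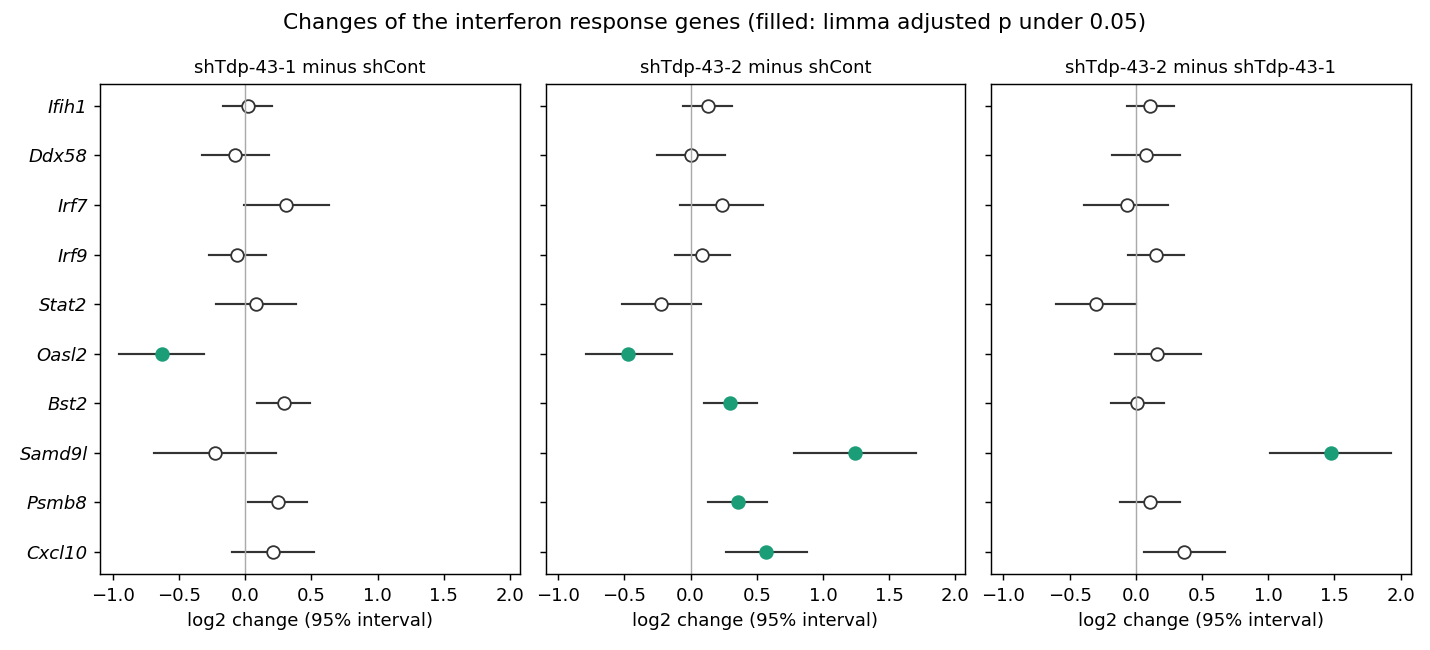
Log2 change (x axis) of each gene with its 95% interval, for shTdp-43-1 minus shCont, shTdp-43-2 minus shCont and shTdp-43-2 minus shTdp-43-1; filled points have a limma adjusted p under 0.05. Samd9l is filled in the middle and right panels, at 1.24 and 1.47, and Oasl2 is the filled point below 0 in the left and middle panels.

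Samd9l, a cytoplasmic restriction factor of poxviruses that interferon induces, showed the widest split between the hairpins. It read 8.31, 7.74 and 7.41 with shTdp-43-2, 6.36, 6.23 and 6.47 with shTdp-43-1, and 6.94, 6.23 and 6.57 with shCont. Every shTdp-43-2 array lay above every other array, while shTdp-43-1 and shCont overlapped. Samd9l rose 2.36-fold with shTdp-43-2 against shCont (1.24 ± 0.212 on the log2 scale, 95% interval 0.78 to 1.70, limma adjusted p = 0.00167). It did not pass with shTdp-43-1, where the change was -0.23 with an interval from -0.69 to 0.23 (adjusted p = 0.495). Set directly against shTdp-43-1, it was 2.77-fold higher with shTdp-43-2 (1.47 ± 0.212, adjusted p = 0.00137).

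The Samd9l value rested on 3 kept probe sets of 7, and 2 of them passed the median only through their shTdp-43-2 arrays, so their difference is partly built into the choice. The remaining one reached the median in each group. Against shCont all 3 kept and all 4 dim probe sets were higher with shTdp-43-2, and all 7 were lower with shTdp-43-1. The probe set that reached the median in each group changed by 0.82 with shTdp-43-2 and was not called on its own (limma adjusted p = 0.249), nor against shTdp-43-1 (1.17, adjusted p = 0.164). The 2 that passed through shTdp-43-2 changed by 1.45 each. One of these 2 was called on its own, where 0.506% of probe sets were called higher: it read 7.80, 7.44 and 7.20 with shTdp-43-2, 5.91, 5.31 and 6.34 with shTdp-43-1, and 6.03, 5.98 and 6.07 with shCont (adjusted p = 0.024 against shCont). It was also called against shTdp-43-1, by 1.63 (adjusted p = 0.0413), where 0.0672% of probe sets were called higher, but that call was lost with the replicate block and without any 1 of the 9 arrays. With no brightness filter, which brings in all 7 probe sets, the gene change was 0.97 against shCont (adjusted p = 0.00475) and 1.29 against shTdp-43-1 (adjusted p = 0.00205). At the level of the gene both calls held in all 18 alternative settings, with 0.97 to 1.45 against shCont and 1.22 to 1.68 against shTdp-43-1.

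Cxcl10, the chemokine IP-10 that draws T cells through the receptor Cxcr3, read 7.75, 7.51 and 8.09 with shTdp-43-2, 7.46, 7.59 and 7.21 with shTdp-43-1, and 7.32, 7.18 and 7.13 with shCont. The shTdp-43-2 arrays lay above all shCont arrays, and the shTdp-43-1 arrays overlapped both. It rose 1.49-fold with shTdp-43-2 (0.57 ± 0.141, 95% interval 0.27 to 0.88, limma adjusted p = 0.0127), and the change with shTdp-43-1 was 0.21 ± 0.141 (adjusted p = 0.349). The direct difference between the hairpins was 0.36 ± 0.141 with an interval from 0.06 to 0.67 and did not pass (adjusted p = 0.125), except when shTdp-43-2 replicate 2 was left out (0.50, adjusted p = 0.0476). All 6 kept probe sets were higher with shTdp-43-2, by 0.30 to 1.07, and 5 of 6 were higher with shTdp-43-1. A dim probe set outside the gene value read 4.25, 5.88 and 6.49 with shTdp-43-2, 3.10, 3.49 and 2.95 with shTdp-43-1, and 3.88, 3.05 and 3.38 with shCont, a change of 2.10 with shTdp-43-2. The shTdp-43-2 call was lost when the median of the probe sets replaced their mean (0.44, adjusted p = 0.109) and held in the other 17 settings.

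Psmb8 is the interferon-inducible catalytic subunit that takes the place of Psmb5 in the immunoproteasome. It read 7.09, 6.92 and 7.13 with shTdp-43-2, 6.82, 7.13 and 6.88 with shTdp-43-1, and 6.62, 6.65 and 6.81 with shCont. Both hairpin groups thus lay above shCont, shTdp-43-1 only by a narrow margin (6.82 against 6.81). By group mean, 4 of the 5 kept probe sets reached the median with shCont and all 5 with each hairpin. Part of the difference may thus be built into the choice of probe sets. Psmb8 rose 1.28-fold with shTdp-43-2 (0.36 ± 0.103, 95% interval 0.13 to 0.58, limma adjusted p = 0.0284). With shTdp-43-1 the fold was 1.19 (0.25 ± 0.103, 95% interval 0.02 to 0.47) and missed the threshold (adjusted p = 0.146), and the hairpins did not differ beyond an interval from -0.12 to 0.33. All 5 kept probe sets were higher with each hairpin, and of the 6 dim ones 3 were higher with shTdp-43-2 and all 6 with shTdp-43-1. With those dim probe sets in the gene value, the shTdp-43-2 change was 0.20 (adjusted p = 0.253), and with the median of the kept ones 0.31 (adjusted p = 0.233). The call was also lost with 1 kept probe set as the minimum, and in 9 of 18 settings in total. It was lost without shTdp-43-2 replicate 1 (adjusted p = 0.0846) or replicate 3 (0.0848), and without shCont replicate 1 (0.104) or replicate 2 (0.0922), with changes of 0.32 to 0.34.

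Bst2, tetherin, which holds enveloped viruses on the surface of the cell that made them, read 8.15, 8.39 and 8.44 with shTdp-43-2, 8.28, 8.39 and 8.28 with shTdp-43-1, and 7.99, 8.0 and 8.09 with shCont. Both hairpin groups lay above shCont on every array and overlapped each other. The rise was 1.23-fold with shTdp-43-2 (0.30 ± 0.0901, 95% interval 0.10 to 0.50, limma adjusted p = 0.0341). With shTdp-43-1 the change was nearly the same, 0.29 ± 0.0901 with an interval from 0.09 to 0.49, but just missed the threshold (adjusted p = 0.0607). The difference between the hairpins was 0.01, with an interval from -0.19 to 0.21. All 4 kept probe sets were higher with each hairpin, by 0.13 to 0.57 with shTdp-43-2 and 0.20 to 0.43 with shTdp-43-1. The shTdp-43-2 call was lost in 8 of 18 settings. Among them were 1 kept probe set as the minimum and the median of probe sets (0.23, adjusted p = 0.296). It was also lost without shTdp-43-2 replicate 2 or 3 (adjusted p = 0.0929 and 0.11) and without shCont replicate 1, 2 or 3 (0.107, 0.102 and 0.054). The shTdp-43-1 change passed without shTdp-43-2 replicate 1 (0.0411) or replicate 3 (0.0465).

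Oasl2 went the other way. It encodes an OAS-like protein of the mouse that, like the OAS family, is induced by interferon. It read 7.87, 7.37 and 7.32 with shTdp-43-2, 7.53, 7.29 and 7.26 with shTdp-43-1, and 8.05, 7.78 and 8.13 with shCont. All shTdp-43-1 arrays lay below all shCont arrays, and 1 shTdp-43-2 array, at 7.87, reached into the shCont range. Oasl2 fell to 72.4% of shCont with shTdp-43-2 (-0.47 ± 0.147, 95% interval -0.79 to -0.14, limma adjusted p = 0.0413) and to 64.6% with shTdp-43-1 (-0.63 ± 0.147, interval -0.95 to -0.31, adjusted p = 0.0194). Between the hairpins it differed by 0.16, within an interval from -0.16 to 0.49.

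With each hairpin 10 of the 12 kept probe sets of Oasl2 were lower, but by uneven amounts, from -1.31 to 0.27 with shTdp-43-2 and from -1.39 to 0.48 with shTdp-43-1. The one with the largest fall read 8.30, 7.96 and 7.65 with shTdp-43-2, 8.10, 7.84 and 7.72 with shTdp-43-1, and 9.35, 8.93 and 9.57 with shCont. It was called with shTdp-43-2 (-1.31, limma adjusted p = 0.0213), where 1.03% of probe sets were called lower, and not with shTdp-43-1 (-1.39, adjusted p = 0.0602), where 0.0843% were called in either direction. In the mean of both hairpins it was the one probe set of the 10 genes called, where 0.432% of probe sets were called lower. Another Oasl2 probe set changed by only 0.05 with shTdp-43-2 and -0.09 with shTdp-43-1. The gene call with shTdp-43-2 was lost when arrays were centred on their medians (-0.38, adjusted p = 0.0744) or the gene values were quantile normalized (0.0675). With the median of probe sets neither hairpin's call passed (adjusted p = 0.139 with shTdp-43-2 and 0.0591 with shTdp-43-1). The shTdp-43-2 call was also lost with 1 kept probe set as the minimum, and in 9 of 18 settings in total. It was lost without shTdp-43-1 replicate 3 (0.0562), shTdp-43-2 replicate 2 (0.132) or 3 (0.134), or shCont replicate 1 (0.122) or 3 (0.138). The call with shTdp-43-1 was lost without shTdp-43-1 replicate 2 (0.0613) or 3 (0.0744), or shCont replicate 1 (0.0736) or 3 (0.0693), with changes of -0.56 to -0.60. For contrast, Oasl1, its close relative, had 7.55, 7.45 and 8.01 with shTdp-43-2, 7.57, 7.91 and 7.88 with shTdp-43-1, and 7.63, 7.60 and 7.62 with shCont, and was not called.

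**Figure D3:**
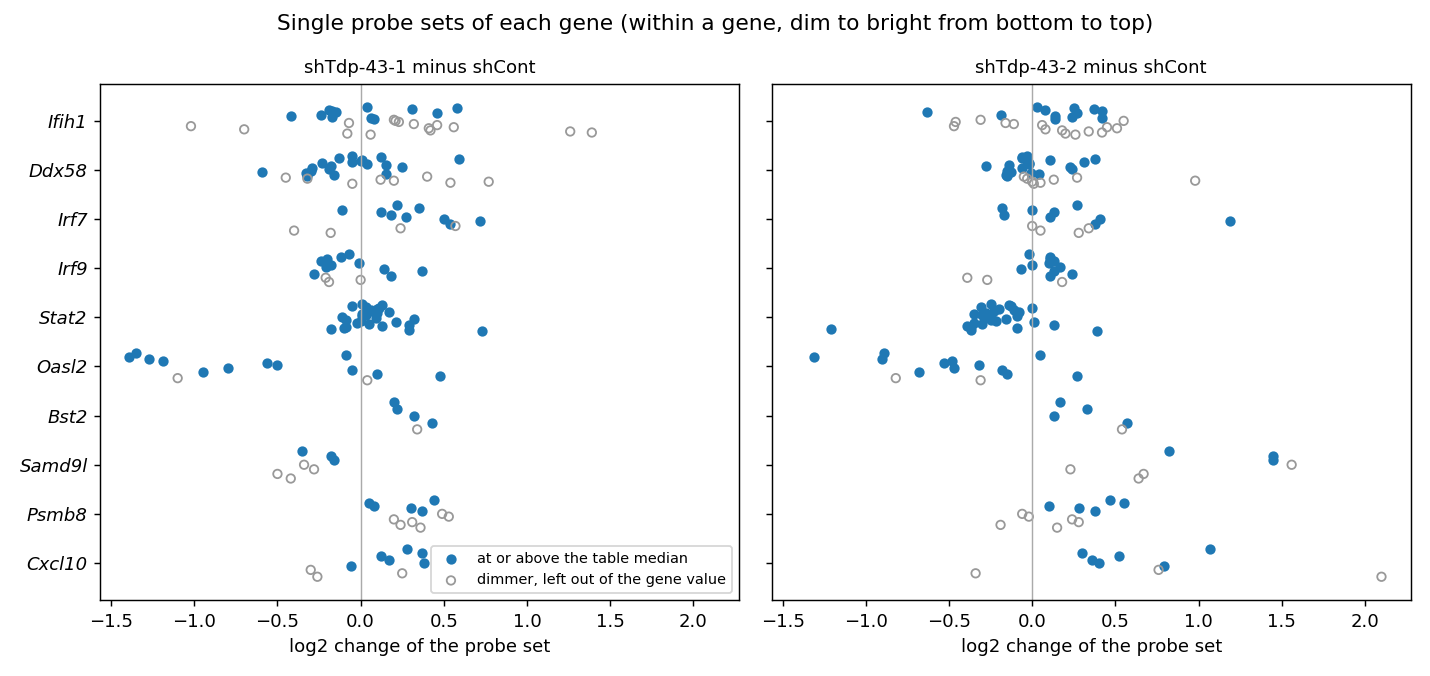
Log2 change against shCont (x axis) of each probe set of the 10 genes, for shTdp-43-1 and shTdp-43-2; filled points reached the median of the table and enter the gene value, open points are dimmer. The Samd9l points lie left of 0 with shTdp-43-1 and right of 0 with shTdp-43-2, and most Oasl2 points lie left of 0 with both.

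The rest of the pathway was read from lists of other genes. Upstream of interferon, of 13 sensors and adaptors 1 fell with shTdp-43-2, where 14.1% of all genes did, and 1 rose with shTdp-43-1, where 5.16% did. The first was Adar, the RNA-editing enzyme that keeps cellular double-stranded RNA from being sensed, at 10.10, 10.27 and 10.22 with shTdp-43-2, 10.56, 10.67 and 10.59 with shTdp-43-1, and 10.65, 10.58 and 10.59 with shCont. It fell by 0.41 on the log2 scale with shTdp-43-2 (limma adjusted p = 0.00313), against a change of 0.00 with shTdp-43-1 (adjusted p = 0.992). The second was Cgas, the cytosolic DNA sensor, which rose by 0.43 with shTdp-43-1 (adjusted p = 0.0162). That call was lost with the median of probe sets in place of their mean (0.35, adjusted p = 0.279) and without shCont replicate 2 (0.0593) or 3 (0.0561). Of 9 kinases and factors 1 fell with each hairpin, beside 14.1% and 5.96% of all genes. Nfkb1 fell by 0.44 with shTdp-43-2 (adjusted p = 0.00584) and Irf3, the first factor switched on by RNA sensing, fell by 0.34 with shTdp-43-1 (adjusted p = 0.0209). With the median of probe sets the Nfkb1 change was -0.37 (adjusted p = 0.0784) and the Irf3 change -0.31 (adjusted p = 0.12), neither called. The Irf3 call was also lost without shTdp-43-1 replicate 3 (0.076) or shCont replicate 1 (0.0966) or 3 (0.0518).

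Most interferon genes had too few kept probe sets to be tested. Of 9 ligand genes, 1 kept at least 3 probe sets, Ifng, at 6.92, 7.20 and 7.59 with shTdp-43-2, 7.12, 7.67 and 7.57 with shTdp-43-1, and 7.15, 7.29 and 6.95 with shCont, with all groups overlapping and no call. Ifnb1, the interferon that most cell types can make, kept 0 of 2 probe sets, the brighter of which had a mean of 5.70. Ifna1, Ifna4 and Ifne also kept none. The other 4 had probe sets above the median but fewer than 3 of them, Ifna2 with 2 and Ifnz, Ifnl2 and Ifnl3 with 1 each, and were not tested.

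Among 12 genes of receptors and Jak-Stat signalling, 1 rose and 2 fell with shTdp-43-2, beside 7.76% and 14.1% of all genes, and none was called by limma with shTdp-43-1, where 4 had an unadjusted p under 0.05. Ifnar1, a chain of the type I interferon receptor, read 9.60, 9.70 and 9.48 with shTdp-43-2, 10.50, 10.36 and 10.47 with shTdp-43-1, and 10.11, 10.18 and 10.27 with shCont, so the 3 groups were fully apart. It fell by 0.60 with shTdp-43-2 (adjusted p by limma = 6e-04) and read 0.26 higher, not called, with shTdp-43-1 (adjusted p = 0.075). Stat3, which CNTF and other cytokines activate, read 9.16, 9.21 and 9.12 with shTdp-43-2, 9.96, 9.88 and 9.78 with shTdp-43-1, and 9.76, 9.68 and 9.94 with shCont. It fell by 0.63 with shTdp-43-2 (adjusted p = 0.000527), and its change with shTdp-43-1 was 0.08 (adjusted p = 0.571). Ifngr2, a chain of the interferon gamma receptor, rose by 0.33 with shTdp-43-2 (adjusted p = 0.0192), a call lost with the median of probe sets (0.165) and without shTdp-43-2 replicate 1 (0.0706) or 3 (0.0571) or shCont replicate 2 (0.0779) or 3 (0.0583).

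Of 28 other interferon-stimulated effectors, out of 40 listed, 6 rose and 1 fell with shTdp-43-2, beside 7.76% and 14.1% of all genes, and 1 rose with shTdp-43-1, beside 5.16%. Their median change was 0.16 with each hairpin, beside -0.008 and 0.006 over all genes, and 23 and 20 of the 28 were above 0, beside 48.7% and 51% of all genes. Most of the 28 were among the dimmer genes tested. The median of all probe sets was 6.06 to 6.09 on the shTdp-43-2 arrays, 6.15 to 6.19 on the shTdp-43-1 arrays and 6.04 to 6.06 on the shCont arrays. Whether a general rise of dim signal with shTdp-43-1 accounts for its shift in these genes was not tested. The mean of their gene values lay at 7.59 to 7.65 on the shTdp-43-2 arrays, 7.49 to 7.59 on the shTdp-43-1 arrays and 7.36 to 7.52 on the shCont arrays. Ifi27, a mitochondrial protein induced by interferon, rose by 0.60 with shTdp-43-2 (limma adjusted p = 0.00256), a call that held in all 18 settings. Cmpk2, a mitochondrial nucleotide kinase, fell by 0.50 with shTdp-43-2 (adjusted p = 0.00665), and that call held in all 18 as well. Dtx3l, an E3 ubiquitin ligase, was the one called with both hairpins, at 0.47 and 0.48 (adjusted p = 0.0324 and 0.0483). With the median of probe sets neither passed (0.0763 and 0.132). After quantile normalization the changes were 0.42 and 0.36, and neither passed (0.114 and 0.213). Its shTdp-43-2 call was lost without shTdp-43-2 replicate 1 or 2 or shCont replicate 1 or 2 (0.0933 to 0.116), and with 1 kept probe set as the minimum (0.062). Its shTdp-43-1 call was lost in 13 of 18 settings. Among them were any 1 shTdp-43-1 array, any 1 shCont array or shTdp-43-2 replicate 2 left out (0.0568 to 0.16). Others were the brightness filter at the 25th percentile (0.0634), no filter (0.0669) and 1 kept probe set as the minimum (0.0882). Gbp2, a GTPase of the interferon gamma response, rose by 0.44 with shTdp-43-2 (adjusted p = 0.0223), lost with the median of probe sets (0.13) and without shTdp-43-2 replicate 1 (0.077) or 3 (0.0511) or shCont replicate 1 (0.0893) or 2 (0.0549). Ifitm3, which blocks virus entry, had the largest change of the list, 0.99 ± 0.324 with shTdp-43-2 (adjusted p = 0.0479). However, 1 of its shCont arrays overlapped the hairpin arrays, and the call was lost in 10 of 18 settings. Among them were those without shTdp-43-1 replicate 2 or 3, shTdp-43-2 replicate 1 or 2, or shCont replicate 1 or 2 (0.0506 to 0.183). Ifitm3 kept 4 probe sets and read 5.71, 5.99 and 7.12 with shCont. The values 5.71 and 5.99 lie below 6.07, the median that its probe sets had to reach on average. Part of its rise may thus be built into the choice of probe sets. By level Ifitm3 stood at the 2.7 percentile of the genes tested, Gbp2 at 2.55 and Dtx3l at 4.75. Whether their kept probe sets reached the median in each group was not tested.

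**Figure D4:**
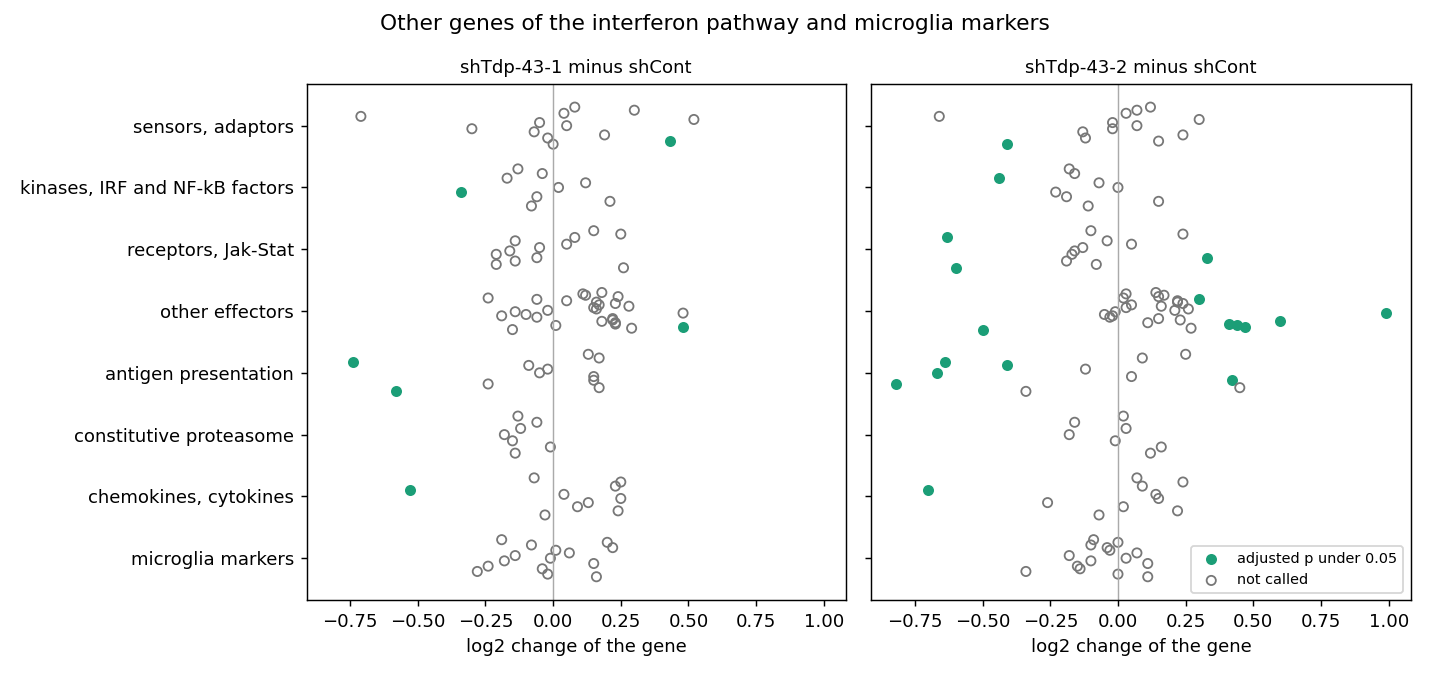
Log2 change against shCont (x axis) of every tested gene of the other pathway lists and of the microglia markers, for shTdp-43-1 and shTdp-43-2; filled points have a limma adjusted p under 0.05. Other effectors lie mostly right of 0 with both hairpins, antigen presentation genes reach farthest to the left, and no microglia marker is filled.

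Most called genes of antigen presentation changed in the opposite direction to Psmb8. Of 11 such genes, 1 rose and 4 fell with shTdp-43-2, beside 7.76% and 14.1% of all genes, and 2 fell with shTdp-43-1, beside 5.96%. Tap1, the peptide transporter subunit whose gene lies next to Psmb8 in the RefSeq table, read 8.04, 7.90 and 7.87 with shTdp-43-2, 8.02, 7.76 and 7.71 with shTdp-43-1, and 8.77, 8.54 and 8.40 with shCont. Both hairpin groups lay below shCont on every array, and Tap1 fell by 0.64 with shTdp-43-2 (adjusted p by limma = 0.00222) and, in the shTdp-43-1 cultures, fell by 0.74 (0.00244). Both calls held in all 18 settings. The other neighbours, Psmb9 and Tap2, were not called with shTdp-43-2 (-0.12 and 0.09) or with shTdp-43-1 (-0.02 and 0.17). Psmb9 and Psmb10 are the other catalytic subunits of the immunoproteasome. Psmb10 read 8.81, 9.0 and 8.79 with shTdp-43-2, 9.61, 9.49 and 9.35 with shTdp-43-1, and 9.64, 9.54 and 9.43 with shCont. It fell by 0.67 with shTdp-43-2 (adjusted p = 0.000666), and its change with shTdp-43-1 was -0.05 (adjusted p = 0.763). Psme1, a subunit of the proteasome activator, fell by 0.41 with shTdp-43-2 (adjusted p = 0.013), a call lost with the median of probe sets (0.0675) and without shCont replicate 1 (0.0564). Psmb5, the constitutive counterpart of Psmb8, read 12.17, 12.50 and 12.33 with shTdp-43-2, 12.09, 12.17 and 12.29 with shTdp-43-1, and 12.14, 12.43 and 12.33 with shCont, and overlapped throughout. None of the 7 constitutive beta subunits was called by limma with either hairpin, and none had an unadjusted p under 0.05.

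The heavy chains of class I, which present peptides on the cell surface, split. H2-D1 read 9.02, 9.54 and 9.25 with shTdp-43-2, 9.94, 9.90 and 9.69 with shTdp-43-1, and 10.08, 10.16 and 10.02 with shCont, and fell by 0.82 with shTdp-43-2 (limma adjusted p = 0.000747). H2-K1 read 9.28, 9.56 and 9.43 with shTdp-43-2, 9.36, 9.13 and 8.97 with shTdp-43-1, and 9.05, 9.04 and 8.91 with shCont, and rose by 0.42 with shTdp-43-2 (adjusted p = 0.0171). Class I heavy chain genes are near-identical over long stretches, so signal may be shared between them. The H2-K1 call was lost with the median of probe sets (0.0671) and without shTdp-43-2 replicate 2 (0.0636) or shCont replicate 3 (0.0649). B2m, the light chain they share, fell with shTdp-43-1 by 0.58 (adjusted p = 0.0183), lost with the median of probe sets (0.0872) and without shTdp-43-1 replicate 3 (0.0754) or shCont replicate 1 (0.0534) or 3 (0.067). With shTdp-43-2 its change was -0.34 (adjusted p = 0.0954).

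Among 10 other chemokines and cytokines none rose and 1 fell with each hairpin, beside 14.1% of all genes with shTdp-43-2 and 5.96% with shTdp-43-1. Cxcl12, a chemokine made in part by stromal cells, fell by 0.70 with shTdp-43-2 (adjusted p by limma = 0.000494). In the shTdp-43-1 cultures Cxcl12 fell by 0.53 (adjusted p = 0.0061), and both calls held in all 18 settings.

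Markers of other cell types bear on genes of this kind, since microglia and cells of vessels and meninges also express them. In RNA of a whole culture, fewer cells of a type and less RNA per cell cannot be told apart. None of 15 microglia markers was called by limma in any comparison, and none had an unadjusted p under 0.05. Their mean gene value was 7.27 to 7.81 on the shTdp-43-2 arrays, 7.37 to 7.81 on the shTdp-43-1 arrays and 7.55 to 7.71 on the shCont arrays. Fibroblast and pericyte markers, 8 of 9 tested, had means of 8.62 to 8.73 on the shTdp-43-2 arrays, 8.82 to 8.88 on the shTdp-43-1 arrays and 9.0 to 9.05 on the shCont arrays, with 4 of 8 called lower with shTdp-43-2 and 2 with shTdp-43-1, beside 14.1% and 5.96% of all genes. The list did not move as one: Dcn, Fn1, Rgs5 and Pdgfrb fell with shTdp-43-2, with changes from -1.15 to -0.56, while Col1a1, Col1a2, Col3a1 and Pdgfra changed by 0.14 to 0.16 and were not called. With shTdp-43-1 the same 4 and 4 genes lay below and above 0. Astrocyte markers had means of 10.06 to 10.14 on the shTdp-43-2 arrays, 10.16 to 10.19 on the shTdp-43-1 arrays and 10.20 to 10.35 on the shCont arrays, with 3 of 10 called lower with shTdp-43-2 and 1 with shTdp-43-1, beside the same shares of all genes. Oasl2, Tap1 and Cxcl12 fell on the same arrays, and the part of these cell types in that was not tested. Endothelial markers, 7 of 8 tested, had means of 7.12 to 7.31 on the shTdp-43-2 arrays, 6.96 to 7.17 on the shTdp-43-1 arrays and 7.0 to 7.04 on the shCont arrays. Of these, 2 rose with shTdp-43-2, beside 7.76% of all genes, Emcn by 0.47 and Tek by 0.27 (adjusted p = 0.00244 and 0.0472), and none was called with shTdp-43-1. All 7 were dim: by level they stood between the 2.73 (Tek) and 19.4 (Pecam1) percentile of the genes tested, with Emcn at 3.79. Samd9l, Cxcl10, Psmb8 and Bst2 rose on the same arrays, and the part of endothelial cells in that was not tested.

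As a description, the genes whose values over the 9 arrays followed each called gene most closely were listed by Pearson r, all points sharing the same arrays and groups. For Samd9l these were Tmem242 (0.983), Slc11a2 (0.974) and Ube2cbp (0.973), and for Cxcl10 they were Prok2 (0.979), Oit3 (0.956) and Hsbp1 (0.938). Psmb8 was followed most closely by Bex1 (0.982), BC106179 (0.98) and Klhl30 (0.977), Bst2 by Calca (0.963), Samd4 (0.959) and Wt1 (0.955), and Oasl2 by Cmtm6 (0.982), Tpm1 (0.981) and Stox2 (0.972). None of these 15 genes is one of the 10 or of the pathway lists.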

How the data were processed

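RNA was hybridised to Affymetrix Mouse Exon 1.0 ST arrays, 3 per group. The deposited table holds log2 values per probe set. Per the labels, the authors obtained them by RMA for all exons, in the Affymetrix Expression Console named in the submitters' processing notes along with the build mm9. No software version was given. RMA gives the arrays a common distribution of probe values, so a change shared by most probes is largely removed. Precision is limited by the number of arrays. Nothing says that arrays of a group came from separate cultures, so p-values measure the spread between these samples, which may be technical.

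Names of probe sets came from the platform annotation (318760 with 1 symbol), with symbols updated through RefSeq (GRCm38.p6, for names and upstream sequences only). Gene values are means of named probe sets at or above the table median, for genes with at least 3. All 9 arrays were fitted in one limma model (lmFit and eBayes, version 3.58.1, R 4.3.3), with Benjamini-Hochberg adjustment over 16770 genes, or over 628416 probe sets; all adjusted p-values are limma's, two-sided, and a call is an adjusted p under 0.05. An exact permutation test of 3 against 3 cannot go below 0.1 and was not used. The model was tested on simulated data. Across genes, log2 values served for the brightness filter, for ranking genes by level and for list means, but not to compare amounts of RNA.

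The 10 genes and the lists were chosen with earlier results of these data known. Named are the 10 genes, Tardbp, at most 4 called genes per list and direction by size, list genes whose level is the point (ligands, receptors, counterparts), and the 3 genes most alike to each called gene. Some marker genes of cell types are named as well. Alternatives were other brightness filters, the median of probe sets, centring and quantile normalization, other fits, a replicate block and leaving out each array.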

Additional observations from a re-analysis of the deposited data

Results flagged for a closer look

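These genes differed between the hairpins by a direct limma contrast of shTdp-43-2 minus shTdp-43-1 (adjusted p under 0.05, changes on the log2 scale). In it 4.22% of all genes were called higher and 7.31% lower. Higher were 1 of the 10 genes, 1 of 12 receptor and Jak-Stat genes and 3 of 28 other effectors. Lower were 1 of 13 sensors and adaptors, 2 of 12 receptor and Jak-Stat genes, 2 of 11 antigen presentation genes and 1 of 10 chemokines and cytokines. The other pathway lists had no call. Samd9l differed by 1.47 (adjusted p = 0.00137), and the call held in all 18 settings. However, 2 of its 3 kept probe sets passed the median only through shTdp-43-2, so the difference is partly built into the choice. The probe set that reached the median in each group differed by 1.17 and was not called on its own (adjusted p = 0.164). Ifnar1 differed by -0.85 (0.000213), Stat3 by -0.71 (0.000602), Psmb10 by -0.62 (0.00232) and Adar by -0.41 (0.00649), each also called in all 18 settings. H2-D1 differed by -0.57 (0.0114) and was called in 17 of 18. Ifi27 differed by 0.43 (0.0279) and Ifngr2 by 0.39 (0.0151), called in 14 and 15 of 18. Cx3cl1, a neuronal chemokine for microglia, differed by -0.39 (0.0318), with means of 9.95 ± 0.114 in shTdp-43-2, 10.34 ± 0.181 in shTdp-43-1 and 10.21 ± 0.0888 in shCont cultures (SD, n = 3), and was called in 11 of 18. Gbp2 differed by 0.44 (0.0394) and Shisa5 by 0.36 (0.0288), called in 7 and 12 of 18. No explanation of these differences was tested.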

How the results depend on the processing

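No change of the 10 genes, of Tardbp or of a called gene of the pathway lists reversed its direction while called. Single marker genes of cell types were not followed through the settings. Of the 10 genes, calls with shTdp-43-2 numbered 5 as reported, 1 with the median of probe sets in place of their mean and 2 with 1 kept probe set as the minimum. Calls with shTdp-43-1 numbered 1 as reported, 0 with that median, 2 with only the groups of the contrast and 2 with the replicate block. For the mean of both hairpins, 4 of the 10 were called (Oasl2, Bst2, Psmb8 and Cxcl10), against 2 with the brightness filter at the 25th percentile, 2 without it, 2 with the median and 2 with 1 probe set as the minimum. Leaving out 1 array gave 2 to 5 calls with shTdp-43-2 (2 without shTdp-43-2 replicate 3 or shCont replicate 1; 3 without shTdp-43-2 replicate 2 or shCont replicate 2 or 3), 0 to 2 with shTdp-43-1 (0 without shTdp-43-1 replicate 2 or 3 or shCont replicate 1 or 3; 2 without shTdp-43-2 replicate 1 or 3), 1 to 2 between the hairpins (2 without shTdp-43-2 replicate 2) and 1 to 4 for the mean (1 without shCont replicate 1 or 2).

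Over all genes, 3667 were called with shTdp-43-2 (2484 to 3894 with 1 array left out), 1865 with shTdp-43-1 (784 to 2224; 1041 with the median), 1934 between the hairpins (964 to 1926; 1198) and 3234 for the mean (1631 to 3487; 2103). With shTdp-43-2, 1301 were higher and 2366 lower, against 2178 and 1717 with arrays centred on their medians and 1793 and 2113 after quantile normalization. With shTdp-43-1, 865 were higher and 1000 lower, against 1214 and 884 when centred. Between the hairpins the split was 708 and 1226, against 1205 and 1126 when centred and 1141 and 1281 after quantile normalization, and for the mean 1245 and 1989, against 1880 and 1444 when centred.

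Of the 110 probe sets, 2 were called with shTdp-43-2 (0 to 2 with 1 array left out), 0 with shTdp-43-1 (0), 1 between the hairpins (0; 0 with the replicate block) and 1 for the mean (0 to 3). Pairing by replicate number was uneven. Deviations of same-numbered arrays correlated from -0.383 to 0.593, and those of differently numbered arrays of different groups from -0.66 to 0.681. The arrays numbered 1 correlated with each other at 0.593, 0.399 and 0.335, and 5 of 9 arrays correlated best with their own number. The replicate block gave 4107 calls with shTdp-43-2, 2353 with shTdp-43-1, 2338 between the hairpins and 3691 for the mean. The causes of these shifts were not tested.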
